A study of Rattus norvegicus with 6 samples.

Results

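The receptors for platelet-derived growth factor (PDGF), fibroblast growth factor (FGF) and epidermal growth factor (EGF), and the ligands that feed them, were followed in rat atrial fibroblasts. The set holds 10 genes: the receptors Pdgfra, Pdgfrb, Fgfr1, Fgfr2 and Egfr, and the ligands Pdgfa, Fgf2, Fgf7, Hbegf and Hgf. They were taken by gene symbol from the deposited gene table, where 10 of 10 were found among 40154 genes, and 10 of 10 passed the filter on low counts. The cells were atrial fibroblasts of Sprague-Dawley rats aged 1 to 3 days. Hearts were minced in trypsin, and cells that adhered within 1.5 h were kept apart from the myocytes and grown in medium with 10% fetal bovine serum. In 3 libraries the cells had received si-NC, a control siRNA, and in the other 3 si-GPD1L, an siRNA against Gpd1l (glycerol-3-phosphate dehydrogenase 1-like). Cells were collected 24 h after transfection. All 6 libraries carry the treatment label "Atrial differentiation", and both groups were transfected. The question of the comparison was which transcripts differ when Gpd1l is silenced.

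Each of these receptors is a tyrosine kinase that spans the membrane. A ligand brings receptor molecules together, the kinases phosphorylate each other, and adaptor proteins then start the RAS-ERK and PI3K-AKT cascades. In the heart, PDGF receptor alpha is a marker of resident fibroblasts, while PDGF receptor beta is prominent in pericytes, vascular smooth muscle cells and activated fibroblasts. PDGF and FGF2 are mitogens for fibroblasts, FGF7 and HGF are made by mesenchymal cells and act mainly on epithelial neighbours, and HB-EGF is shed from the cell surface to activate the EGF receptor. HGF signals through a receptor of its own, MET.

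Library totals ran from 16892255 to 20149732 counts, and 14852 genes were tested. Gpd1l stood at 262, 332 and 313 normalised counts (counts scaled to the mean library size) in si-NC replicates 1, 2 and 3, and at 220, 208 and 302 in si-GPD1L replicates 1, 2 and 3. The groups overlapped, since si-GPD1L replicate 3 lay inside the si-NC range, and the fall was not called (log2 fold change −0.31, SE 0.15, adjusted p = 0.234, edgeR's quasi-likelihood test). The 14 alternative fits also left Gpd1l uncalled, with adjusted p from 0.0604 to 0.579. The labels do not say that the libraries of a group came from separate cultures, nor whether the digit in the si-GPD1L names counts replicates or different siRNAs, so the p-values measure only the spread between these libraries, which may be technical. Within si-NC, replicate 1 was the library least like the others. The chi-square per degree of freedom of raw counts was 19.7 against replicate 2 and 27.4 against replicate 3. It was 8.35 between replicates 2 and 3. The library si-NC replicate 1 is followed beside the results below.

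The 10 genes showed no called difference between the groups. At an adjusted p under 0.05, 0 of 10 were called, against 6.36% of all genes tested (4.03% higher and 2.33% lower in si-GPD1L). With an absolute log2 fold change over 1 required as well, which the study also asked for, 1.62% of all genes were called and again 0 of the 10. Unadjusted p-values under 0.05 were reached by 2 of 10, Fgfr1 and Hbegf, against 22.4% of all genes. Other tests on the counts gave the same number of calls among the 10: DESeq2's Wald test called 0 (7.91% of all genes, and 1 of the 10 at an unadjusted p under 0.05), and edgeR's exact test called 0 (10.1% of all genes, and 2 of the 10 unadjusted). The median log2 fold change of the 10 was 0.063, beside −0.0049 over all genes, and the median of its absolute value was 0.096, beside 0.15 over all genes. The 95% confidence intervals bounded what these libraries could show. For the 5 receptors they lay between a decrease of 17.9% and an increase of 37.3%, and for the 5 ligands between −49.5% and 38.1%.

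The system was dominated by Pdgfrb. Levels of different genes were compared as TPM, the deposited value that divides a count by gene length and scales each library to a common sum. Over the 6 libraries Pdgfrb averaged 700.3 TPM ± 86.8 (SD), above 98.7% of the genes tested. Fgfr1 followed at 135 TPM ± 19.6, Pdgfra at 91.0 ± 10.3 and Pdgfa at 66.0 ± 4.72. These were the only members above 50 TPM. Hbegf averaged 29.1 TPM ± 4.31, Fgfr2 20.6 ± 3.62, Fgf2 13.9 ± 2.08, Egfr 11.8 ± 1.61 and Hgf 8.42 ± 0.135. Fgf7 was last at 0.924 TPM ± 0.151, above 8.89% of the genes tested. The ranges over libraries overlapped between Fgfr1 and Pdgfra, Hbegf and Fgfr2, Fgfr2 and Fgf2, and Fgf2 and Egfr, although within each of the 6 libraries the first of each pair was the higher. The other neighbours in the order did not overlap. The order partly rests on the length used: with the median length of a gene's transcripts in place of the gene length, Fgfr2 passed Hbegf and Egfr passed Fgf2. Egfr is the gene most affected, with a gene length of 20481 bases and a median transcript of 11038.

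**Figure D1:**
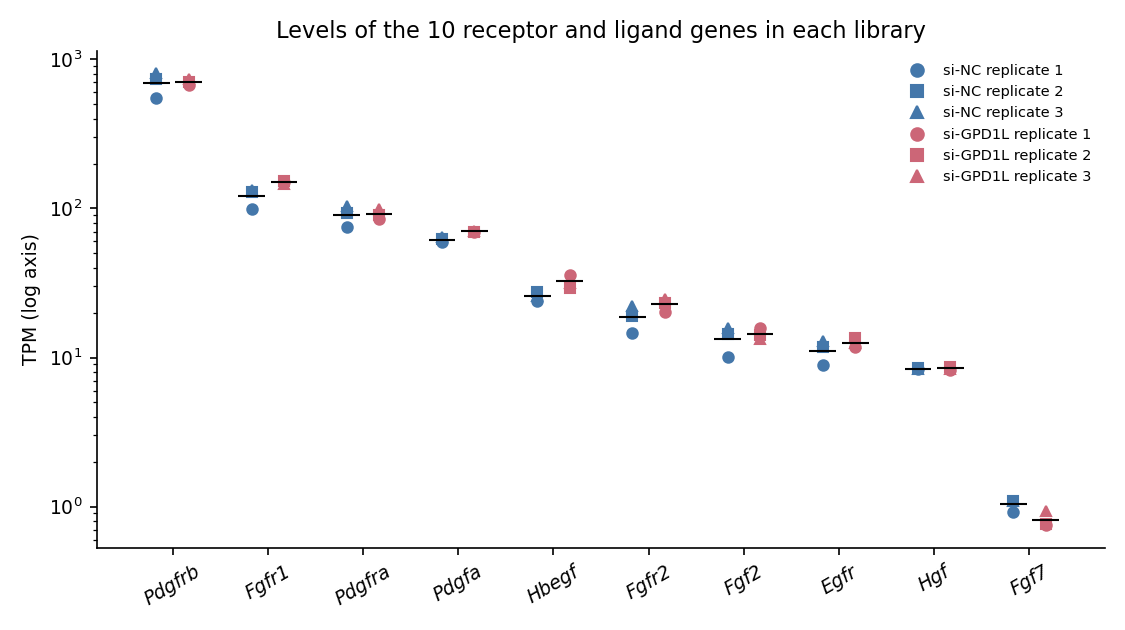
Level of each of the 10 genes in each library in TPM, on a log axis, ordered by the mean over the 6 libraries. Blue points are si-NC and red points si-GPD1L libraries, with 1 symbol per replicate number, and the black lines are the group means. Pdgfrb lies highest, at 548 to 805 TPM, and Fgf7 lowest, at 0.750 to 1.09 TPM.

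The group differences below are on normalised counts, because a TPM depends on all other genes of its library. The choice matters for direction: the si-GPD1L mean was the higher for 9 of the 10 in TPM and for 6 of the 10 in normalised counts. Pdgfra, Pdgfrb and Hgf account for the difference, with TPM means of 90.4, 697 and 8.39 in si-NC beside 91.6, 704 and 8.44 in si-GPD1L.

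Pdgfra (chr14:35527926-35581130 in the files, which use rn6) encodes the receptor for all PDGF dimers but PDGF-DD. It stood at 4433, 5114 and 5608 normalised counts across si-NC and at 4552, 4751 and 5249 in si-GPD1L. All 3 si-GPD1L values lay inside the si-NC range. Its log2 fold change was −0.06 (SE 0.09, adjusted p = 0.761), a difference of −3.97% with a confidence interval from −16.5% to 10.4%.

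Pdgfrb (chr18:56364586-56406381), the receptor for PDGF-BB and PDGF-DD, stood at 25473, 31742 and 34162 normalised counts across si-NC and at 27991, 29092 and 30490 in si-GPD1L. Again the si-GPD1L values lay within the si-NC range, which was the wider one because si-NC replicate 1 was low. The log2 fold change was −0.06 (SE 0.10, adjusted p = 0.774), or −4.16% with an interval from −17.9% to 11.9%. That Pdgfrb was not called depended on 1 library. Without si-NC replicate 1, Pdgfrb was called lower in si-GPD1L, with a log2 fold change of −0.18 and an adjusted p of 0.0334, in a fit that called 10.1% of all genes. It was the only one of the 10 called in that fit. Without si-NC replicate 3 its log2 fold change was 0.03 (adjusted p = 0.894).

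The balance of the 2 PDGF receptors varied little. The Pdgfrb TPM was 7.34, 7.93 and 7.78 times that of Pdgfra in si-NC and 7.85, 7.82 and 7.42 times in si-GPD1L. The group means were 7.68 ± 0.306 and 7.69 ± 0.242 (SD, n = 3), and the libraries of the groups overlapped. The library si-NC replicate 1 was the lowest of the 6 libraries for 5 of 5 receptors and for 1 of 5 ligands (Fgf2), against 27.5% of all genes tested.

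Fgfr1 (chr16:71265390-71319046) encodes the FGF receptor best known in mesenchymal cells. It stood at 3396, 4052 and 4148 normalised counts across si-NC and at 4576, 4592 and 4449 in si-GPD1L. The groups did not overlap, and the spread within si-GPD1L (SD 78.7) was far smaller than within si-NC (SD 409). The log2 fold change was 0.23 (SE 0.08), a difference of 17.4% with an interval from 3.64% to 33.1%. The unadjusted p was 0.0159, but adjusted over all genes it was 0.121 and Fgfr1 was not called. Across the 14 alternatives the log2 fold change stayed between 0.15 and 0.29 and the adjusted p between 0.0573 and 0.354.

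Fgfr2 (chr1:200590951-200696946), whose splice forms bind different FGFs in epithelium and mesenchyme, stood at 937, 1134 and 1306 normalised counts across si-NC and at 1170, 1332 and 1415 in si-GPD1L. The groups overlapped, and the log2 fold change was 0.21 (SE 0.11, adjusted p = 0.282), with an interval from −1.93% to 37.3%. Of the 10 genes, 4 had groups that did not overlap: Fgfr1, Pdgfa and Hbegf, with all si-GPD1L libraries above all si-NC libraries, and Fgf7, with all below. Among all genes tested 29% did not overlap, 15.1% with si-GPD1L higher and 13.9% with si-GPD1L lower.

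**Figure D2:**
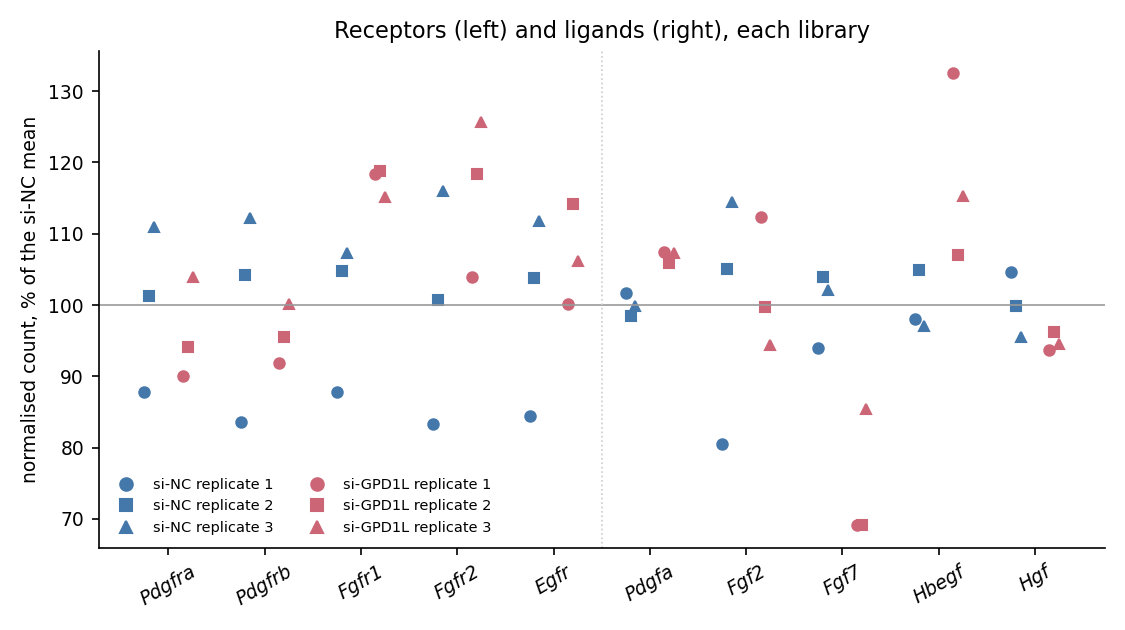
Normalised count of each gene in each library as a percentage of its si-NC mean, receptors left of the dotted line and ligands right of it. Blue points are si-NC and red points si-GPD1L, with 1 symbol per replicate number. For the 5 receptors si-NC replicate 1 (blue circle) is the lowest library. The si-GPD1L points lie above all si-NC points for Fgfr1, Pdgfa and Hbegf, and below them for Fgf7.

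Other FGF receptor genes, outside the set, were called. Of 12 receptors and co-receptors 10 were tested, and 4 were called, 2 higher and 2 lower. Among all genes tested 4.03% were called higher and 2.33% lower. Fgfr3, the third FGF receptor kinase, fell from 757, 824 and 782 normalised counts in si-NC to 420, 565 and 608 in si-GPD1L (log2 fold change −0.57, SE 0.12, adjusted p = 0.0137). Fgfrl1, a receptor that binds FGFs but lacks the kinase domain, rose from 387, 369 and 362 to 694, 572 and 513 (log2 fold change 0.67, SE 0.11, adjusted p = 0.0033). For both genes the groups did not overlap. Gpc1 and Sdc2 are heparan sulfate proteoglycans, and such proteoglycans hold FGFs at their receptors. Gpc1 rose (log2 fold change 0.47, adjusted p = 0.0046) and Sdc2 fell (−0.34, adjusted p = 0.0356). Sdc2 lost its call in 3 of the 14 alternatives, in each of which 1 library was left out (si-NC replicate 2, si-GPD1L replicate 1 or si-GPD1L replicate 2), and Fgfr3 in the 2 of them that lacked a replicate 2.

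The make-up of the FGF receptor pool is best read within each library, as a share of the summed TPM of Fgfr1 to Fgfr4. Fgfr1 made up 72.0%, 72.4% and 72.2% in si-NC and 79.6%, 76.2% and 74.9% in si-GPD1L. The Fgfr3 share was 15.1%, 13.9% and 12.8% in si-NC and 6.88%, 8.84% and 9.64% in si-GPD1L. Neither share overlapped between the groups, and Fgfr1 was the main receptor in every library. The shares of a pool have a fixed sum, so the higher Fgfr1 share and the lower Fgfr3 share are not separate results. Fgfr3 was called lower, while Fgfr1 itself was not called. Among all genes tested, 29% had groups that did not overlap in normalised counts. Fgfr2 held 11.1% ± 0.823 and 11.7% ± 0.919 (SD, n = 3), and Fgfr4 2.80% ± 0.325 and 2.98% ± 0.248, with overlapping libraries for both.

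**Figure D3:**
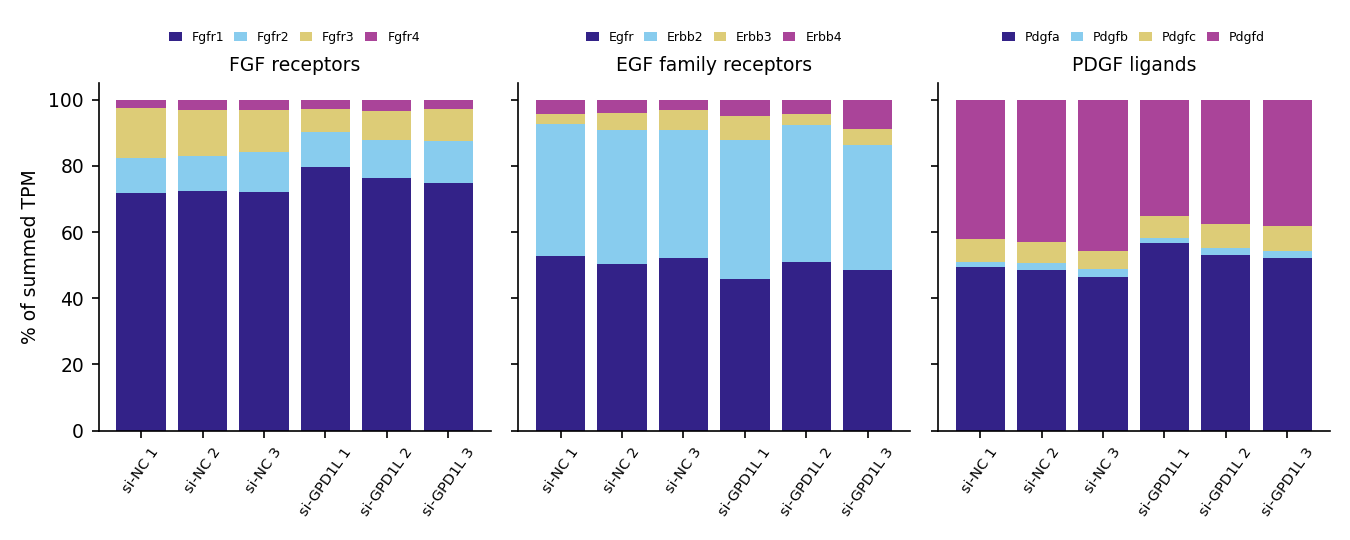
Shares of the summed TPM within each library for the FGF receptors, the EGF family receptors and the PDGF ligands. Each bar is 1 library and sums to 100%. Fgfr1 takes 72.0% to 72.4% of its pool in the si-NC libraries and 74.9% to 79.6% in the si-GPD1L libraries, and the Fgfr3 segment is the narrower in all 3 si-GPD1L bars.

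Egfr (chr14:99919485-100104136), the receptor for EGF, TGF-alpha and HB-EGF, stood at 1498, 1841 and 1982 normalised counts across si-NC and at 1776, 2025 and 1883 in si-GPD1L. The groups overlapped, with a log2 fold change of 0.10 (SE 0.10, adjusted p = 0.615), and an interval from −7.77% to 23.8%. The value was −0.01 without si-NC replicate 1. Of 8 EGF family receptors and sheddases, the proteases and cofactors that release the ligands, 8 were tested and 0 were called by edgeR's quasi-likelihood test. Erbb2, the EGF family receptor without a ligand of its own, had a log2 fold change of 0.22 (adjusted p = 0.299). In the pool of 4 receptors of this family Egfr held 51.7% ± 1.26 of the TPM in si-NC and 48.4% ± 2.52 in si-GPD1L (SD, n = 3), and Erbb2 39.7% ± 0.870 and 40.5% ± 2.34. The libraries overlapped for both. Erbb3 had a log2 fold change of 0.23 (SE 0.33), at 29 to 86 raw counts. Erbb4, a neuregulin receptor with few reads, stood at 24.7, 28.6 and 23.4 normalised counts across si-NC and at 38.2, 33.6 and 67.9 in si-GPD1L, without overlap. Its log2 fold change of 0.86 (SE 0.31, unadjusted p 0.0153) was the largest of all pathway genes tested but was not called (adjusted p = 0.119). It was called in 1 of the 14 alternatives, the filter of 1 count in any library (adjusted p = 0.0274), and its log2 fold change was 0.48 without si-GPD1L replicate 3. The Erbb4 share of the receptor pool was 4.40%, 3.94% and 3.10% in si-NC and 4.97%, 4.26% and 8.83% in si-GPD1L, with overlap.

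Among the ligands, Pdgfa (chr12:17734141-17756186), the A chain of PDGF, had the smallest coefficient of variation of the 10 in either group (1.61% in si-NC and 0.808% in si-GPD1L). It stood at 1340, 1297 and 1316 normalised counts across si-NC and at 1415, 1395 and 1414 in si-GPD1L. The groups did not overlap, but the difference was small (log2 fold change 0.10, SE 0.06, adjusted p = 0.415), 6.88% with an interval from −3.08% to 17.9%. Pdgfd, which encodes a latent PDGF that proteases activate, was the other abundant PDGF ligand. It had 556, 557 and 629 normalised counts in si-NC and 427, 480 and 505 in si-GPD1L, without overlap, and its log2 fold change of −0.30 was not called (adjusted p = 0.0802). It passed the threshold in 3 of the 14 alternatives, among them the fit without si-NC replicate 1 (adjusted p = 0.0210). The share of Pdgfa in the summed TPM of the 4 PDGF ligands was 49.5%, 48.7% and 46.6% in si-NC and 56.6%, 53.0% and 52.1% in si-GPD1L, and that of Pdgfd 42.2%, 42.9% and 45.7% and then 35.1%, 37.5% and 38.2%. Neither share overlapped between the groups. The shares of a pool have a fixed sum, so the higher Pdgfa share and the lower Pdgfd share are not separate results. Neither Pdgfa nor Pdgfd was called. Pdgfb and Pdgfc were minor, with mean shares between 1.90% and 7.12%, and neither was called (log2 fold change 0.05 and adjusted p 0.937 for Pdgfb, 0.13 and 0.720 for Pdgfc). In the PDGF family list of 7, all tested, 1 gene was called, beside 6.36% of all genes tested. It was Pdgfrl, a secreted receptor-like protein, which rose (log2 fold change 0.36, adjusted p = 0.0139). It was not called in 3 of the alternatives (without si-NC replicate 2, si-GPD1L replicate 1 or si-GPD1L replicate 2).

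Fgf2 (chr2:124081072-124134133), basic FGF, stood at 85.0, 111 and 121 normalised counts across si-NC and at 119, 105 and 99.8 in si-GPD1L. The groups overlapped, with the lowest and the highest library both in si-NC. The log2 fold change was 0.03 (SE 0.17, adjusted p = 0.943), and the interval ran from −20.7% to 31.3%.

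Fgf7 (chr3:118315859-118368464), keratinocyte growth factor, had few reads. Its raw counts were 30, 31 and 33 in si-NC and 20, 24 and 27 in si-GPD1L, and its normalised counts 29.7, 32.8 and 32.2 and then 21.8, 21.8 and 26.9. The groups did not overlap, yet the difference was within the error at this depth (log2 fold change −0.42, SE 0.26, adjusted p = 0.367), with the widest interval of the 10, from −49.5% to 10.3%. The whole of Fgf7 lies inside Fam227b on the opposite strand, a gene listed at 16 to 38 raw counts. The sources used here do not say whether counting used strand, and whether exons of the 2 genes overlap was not examined. Whether Fam227b affected the Fgf7 counts was not tested. Of 17 FGF ligands 7 were tested and 0 called by edgeR's quasi-likelihood test, and Fgf3, Fgf4, Fgf6 and Fgf20 were at 0 in every library. Fgf1, acidic FGF, had a log2 fold change of 0.14 (SE 0.16), and Fgf10, a mesenchymal ligand of the same subfamily as Fgf7, one of −0.52 (SE 0.25, adjusted p = 0.251).

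Hbegf (chr18:29330302-29340185), which encodes HB-EGF, stood at 306, 328 and 304 normalised counts across si-NC and at 414, 334 and 360 in si-GPD1L. The lowest si-GPD1L library was just above the highest si-NC library. The log2 fold change was 0.24 (SE 0.10), or 18.1% with an interval from 0.920% to 38.1%. Its unadjusted p of 0.0397 became 0.198 after adjustment, and it stayed at or above 0.195 in the alternatives.

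In the EGF ligand list, 5 of 11 genes were tested and 2 were called higher, beside 4.03% of all genes tested. Tgfa, which encodes TGF-alpha, another ligand of the EGF receptor, rose from 221, 217 and 215 normalised counts to 394, 351 and 290 (log2 fold change 0.66, SE 0.12, adjusted p = 0.0060). It was called in all 14 alternatives. Nrg1, which encodes a ligand of ERBB3 and ERBB4, rose from 1022, 1128 and 1002 to 1505, 1398 and 1231 (log2 fold change 0.39, SE 0.09, adjusted p = 0.0196), and lost the call when si-GPD1L replicate 1 or 2 was left out. Areg and Ereg had log2 fold changes of 0.12 (SE 0.48) and 0.17 (SE 0.22), and Btc was not tested at 3 to 9 raw counts. Egf was not found by its symbol among the deposited genes, so it is missing from the shares that follow. Of the summed TPM of the ligands of the EGF receptor, Hbegf held 60.0% ± 2.54 in si-NC and 58.7% ± 3.61 in si-GPD1L (SD, n = 3), with overlap. The share of Tgfa went from 13.6% to 15.0% over the si-NC libraries to 17.0% to 19.6% over the si-GPD1L libraries, without overlap. Among the ligands of the EGF receptor that were measured, Hbegf thus had the largest transcript share in every library.

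Hgf (chr4:15435460-15505377) stood at 263, 251 and 240.1 normalised counts across si-NC and at 235, 242 and 238 in si-GPD1L. The groups overlapped, and the log2 fold change was −0.08 (SE 0.10, adjusted p = 0.707), with an interval from −18.4% to 10.3%. Met, its receptor, was measured at 46 to 58 raw counts in the 6 libraries, with a log2 fold change of 0.01 (SE 0.20, adjusted p = 0.988). Of 7 genes of the HGF-MET axis 5 were tested and 0 were called by edgeR's quasi-likelihood test.

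**Figure D4:**
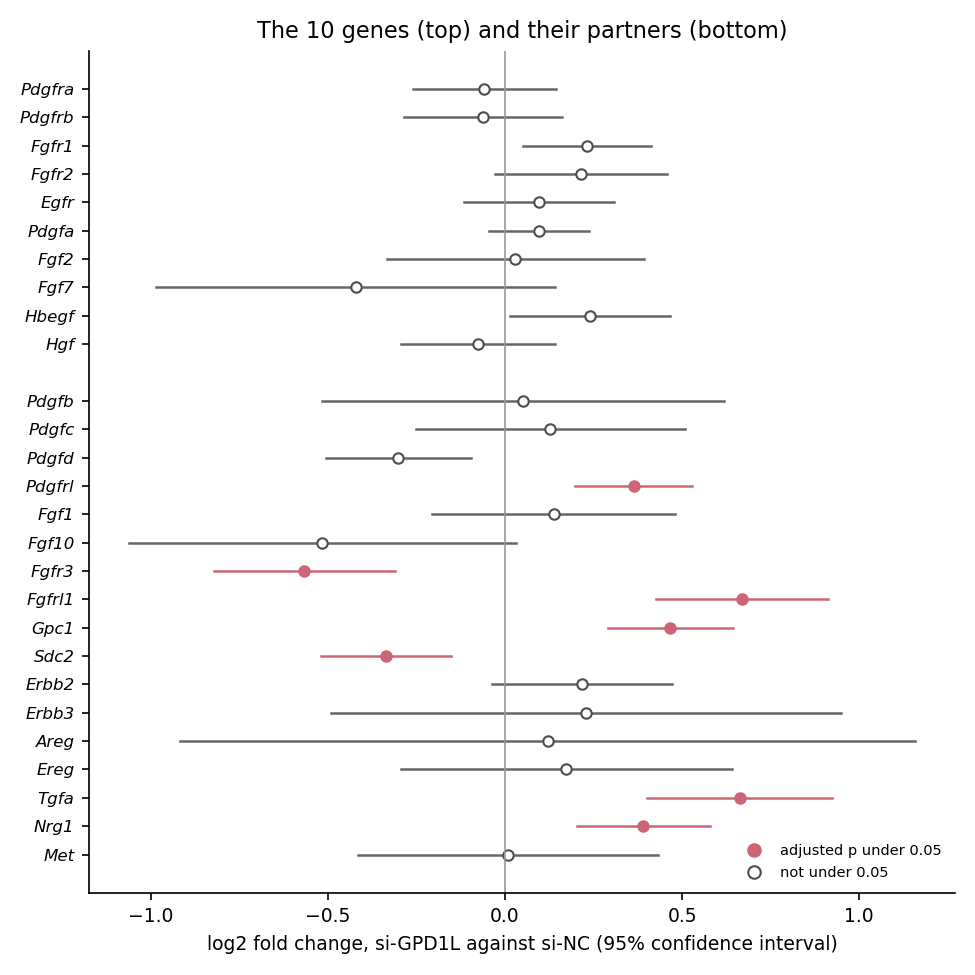
Log2 fold change of si-GPD1L against si-NC with its 95% confidence interval, the 10 genes above and partner ligands, receptors and co-receptors below. Filled red points have an adjusted p under 0.05 and open points do not. All 10 genes above are open, with values from −0.42 for Fgf7 to 0.24 for Hbegf, while Pdgfrl, Fgfrl1, Gpc1, Tgfa and Nrg1 are filled to the right of 0 and Fgfr3 and Sdc2 to the left.

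Downstream of the receptors, 5 of 50 tested genes in 3 lists were called (10.0%, beside 6.36% of all genes tested). Of 24 receptor adaptors and members of the RAS-ERK cascade, all tested, 1 was called: Map2k1, the kinase MEK1, rose (log2 fold change 0.24, adjusted p = 0.0458) in the main analysis but in only 4 of the 14 alternatives, and of the fits that leave out 1 library only in the one lacking si-NC replicate 1. Of 15 feedback inhibitors of receptor tyrosine kinases 14 were tested. Dusp4, a phosphatase of MAP kinases, rose (log2 fold change 0.37, adjusted p = 0.0394), and Spry2, a Sprouty protein, fell (−0.25, adjusted p = 0.0368). Spry2 stood at 3142, 3297 and 3208 normalised counts across si-NC and at 2698, 2686 and 2703 in si-GPD1L. Dusp4 was not called in 6 and Spry2 in 5 of the 14 alternatives, among them for both genes the fits lacking si-NC replicate 2 or any 1 of the si-GPD1L libraries.

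Of 12 genes known to respond to ERK signalling, all tested, 2 were called higher, beside 4.03% of all genes tested. Both encode ETS factors of the PEA3 group, which FGF signalling is known to induce. Etv5 rose from 737, 879 and 900 normalised counts to 1195, 1184 and 1176 (log2 fold change 0.50, SE 0.08, adjusted p = 0.0034) and was called in all 14 alternatives. Etv4 rose from 506, 479 and 433 to 780, 624 and 609 (log2 fold change 0.50, SE 0.11, adjusted p = 0.0168) and was not called in 2 alternatives, those lacking si-NC replicate 2 or si-GPD1L replicate 1. The other 10 genes of this list were not called. Their log2 fold changes ran from −0.34 for Etv1, also of the PEA3 group, to 0.66 for Fosl1.

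Over the 9 lists of the pathway together, 92 of 113 genes were tested and 12 were called (13%, beside 6.36% of all genes tested), 9 higher and 3 lower (4.03% and 2.33% of all genes), with a median log2 fold change of 0.064. The count was 5 without si-NC replicate 2, without si-GPD1L replicate 1 or without si-GPD1L replicate 2, and 16 without si-NC replicate 1. With the absolute log2 fold change over 1 that the study also asked for, 0 were called. All 12 lay outside the set of 10, so 14.6% of the 82 other genes were called. The lists were chosen with earlier results of these data known, so these shares only describe the lists. The smallest p of these genes belonged to Fgfrl1, and only Fgfrl1, Gpc1, Tgfa and Etv5 were called in all 14 alternative fits at an adjusted p under 0.05.

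**Figure D5:**
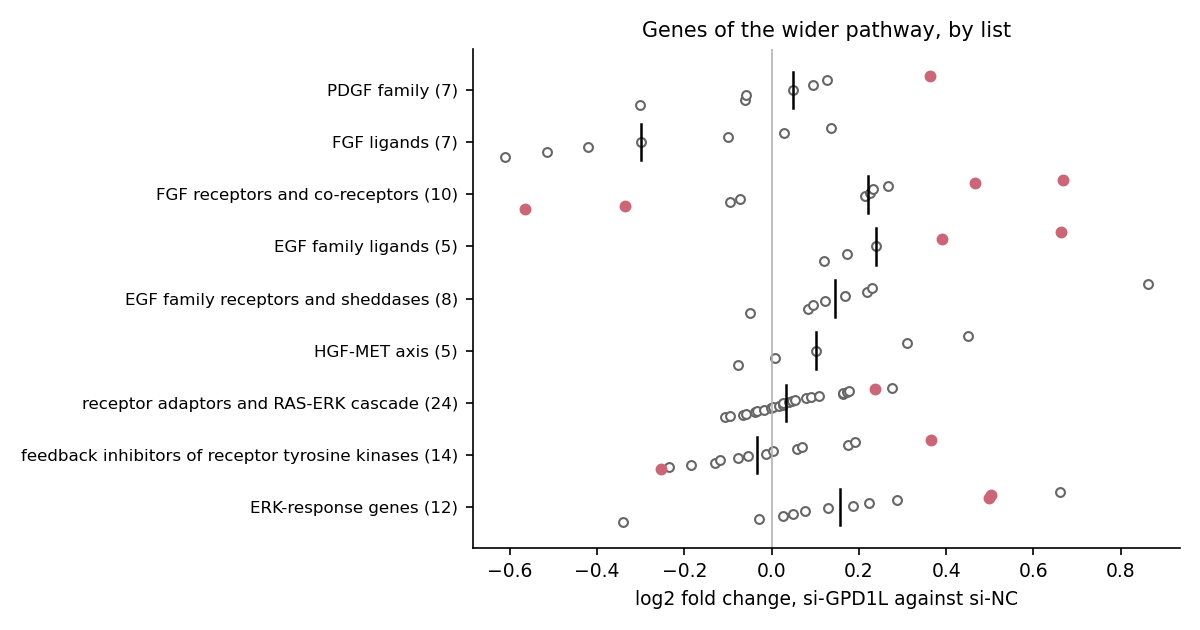
Log2 fold change of si-GPD1L against si-NC for each tested gene of the 9 pathway lists, with the number tested in brackets. Each circle is 1 gene, filled red where the adjusted p is under 0.05, and the black line is the median of the list. The list medians run from −0.30 for the FGF ligands to 0.24 for the EGF family ligands, and the 12 filled circles are spread over 6 of the 9 lists.

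The 5 genes whose values over the 6 libraries were most like those of Fgfr1, the member with the smallest adjusted p, were Gpat4, Wasf2, Itpripl2, Tmem184b and Exoc4. Likeness was measured as the root-mean-square difference of log2 normalised counts, each centred on its si-NC mean. It was 0.0125 for Gpat4 and 0.0224 for Exoc4, beside a median of 0.235 over the 11038 genes compared. Because they were picked for likeness over these same libraries, each necessarily shared the low value in si-NC replicate 1 and the close si-GPD1L values of Fgfr1. Gpat4 stood at 1508, 1768 and 1825 normalised counts across si-NC and at 2039, 2008 and 1938 in si-GPD1L, and like Fgfr1 it was not called (adjusted p = 0.111).

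In the transcript counts, a read shared by isoforms was counted for each of them. The log2 ratio of si-GPD1L to si-NC was 0.20 to 0.23 over 10 Fgfr1 transcripts and 0.17 to 0.24 over 11 Fgfr2 transcripts. For 4 Pdgfra and 2 Pdgfrb transcripts it lay between −0.07 and −0.06. No isoform of these receptors went against the direction of its gene. Each was credited with 52.8% to 99.7% of its gene's count, so this says little about single isoforms. For Egfr it was 0.08 to 0.23 over 4 transcripts, and for Pdgfa 0.06 and 0.12 over 2. Hgf had 1 transcript on each side of 0, at −0.05 and 0.05. Fgf7 had 3, from −0.42 to 0.07, and the 1 above 0 was a form of 693 bases with 5 to 10 raw counts.

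The cultures held the markers of fibroblasts, with Col1a1, Col3a1 and Vim the most abundant of that list, and lower levels of markers of other cells. In such bulk samples fewer cells of a type and less RNA per cell cannot be told apart. Beside the counts of called markers that follow, 4.03% of all genes tested were called higher and 2.33% lower. Of 10 fibroblast markers 2 fell, Lum and Dcn, and 0 were called higher. Only 2 of the 10 had a log2 fold change above 0, with Col1a1 the highest at 0.25, and the median was −0.14. Their summed normalised counts were 1.28e+06 to 1.58e+06 in the si-NC libraries and 1.48e+06 to 1.57e+06 in the si-GPD1L libraries. Markers of smooth muscle cells and pericytes, which also express Pdgfrb, had summed normalised counts of 19584 to 22348 in the si-NC libraries and 20643 to 22215 in the si-GPD1L libraries, with 2 of 10 higher and 1 lower, led in level by Mcam, Cnn1 and Notch3. Cardiomyocyte markers (Nppa, Tnnt2 and Myh6 the most abundant) summed to 32870 to 34131 and then to 28993 to 32017, without overlap. Of these 10 markers 1 was called lower, and 3 had a log2 fold change above 0. Endothelial markers (Flt1, Tek and Cdh5 the most abundant) summed to 1815 to 2302 and then to 2564 to 2678, without overlap, and 5 of the 9 tested rose. Macrophage markers (Lyz2, Cd14, Cd68) and epicardial markers (Aldh1a2, Tbx18, Wt1) had 0 of 10 and 0 of 7 called by edgeR's quasi-likelihood test. The widest difference between the groups was in interferon-stimulated genes, where 19 of 19 tested rose, with a median log2 fold change of 6.02 and summed counts of 4414 to 4815 across si-NC but 35111 to 42524 across si-GPD1L. Mx2, an antiviral GTPase, was the most changed of them, at 4.94 to 8.78 normalised counts across the si-NC libraries and 4479 to 5536 across the si-GPD1L libraries. The part of these cell markers and of the interferon-stimulated genes in the changes of Fgfr3, Fgfrl1, Tgfa, Etv5 and the others was not tested.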

How the data were processed

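Messenger RNA of 6 libraries of rat atrial fibroblasts was sequenced (polyA-selected, Illumina). The authors deposited whole-number read counts for 40154 genes and 55760 transcripts, and TPM values, which divide the counts by gene length. The submitters' processing notes name bcl2fastq, HISAT2 2.1.0, HTSeq 0.12.4 and the rn6 build. Whether counting used strand is not given in the sources used here. Groups and replicate numbers came from the sample titles.

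Counts were analysed in R 4.3.3 with edgeR 4.0.16: filterByExpr kept 14852 genes, TMM normalised them, and the quasi-likelihood F test compared the groups with Benjamini-Hochberg adjustment over all genes tested. A gene was called at an adjusted p under 0.05. The fold change's SE came from the F statistic. The common biological coefficient of variation was 0.0894. On simulated counts the test recovered 45 of 50 genes changed 1.5-fold and 49 of 50 changed 2-fold, with 6 unchanged genes called among 14666. The changed genes were drawn only from those with a mean of at least 50 counts, so Fgf7 is not covered. Changes smaller than 1.5-fold were not simulated, and no simulated library was made to stand apart from its group as si-NC replicate 1 does. Counts of the 10 genes ran from 20 (Fgf7) to 35004 (Pdgfrb), so counting error weighs most on Fgf7.

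The 14 alternative fits were 2 other normalisations, 2 other filters, DESeq2 1.42.0, edgeR's exact test, a block on the replicate number, leaving out each of the 6 libraries and summed transcript counts. The study's fold threshold was applied to the main analysis and is not counted among the 14. The per-length comparison with transcript lengths was chosen after seeing the data. The 10 genes, the gene lists and the named genes (the members, their direct partners, at most 4 called genes per pathway list by adjusted p, the 3 most abundant of each marker list and 5 genes most like the member with the smallest adjusted p) were chosen with earlier results of these data known. Erbb4, Etv1, Fosl1, Lum and Dcn were named after their values were seen. The other genes named (Fgf3, Fgf4, Fgf6, Fgf20, Fgfr4, Egf, Fam227b and Mx2) give the values of a list or pool they belong to or overlap. Figures were drawn with matplotlib 3.10.9. The authors' own comparison tables (fold changes, p-values, adjusted signals) and the KEGG and GO tables were not used.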

Additional observations from a re-analysis of the deposited data

How the results depend on the processing

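No member was called in 13 of the 14 alternatives. The exception was the fit without si-NC replicate 1, which called Pdgfrb, so the count over the fits that leave out 1 library ran from 0 to 1. Of 140 member values under the alternatives, 134 kept their direction and their side of the threshold and 5 changed sign while uncalled. Leaving out 1 library gave log2 fold changes of −0.15 to 0.023 for Pdgfra, −0.18 to 0.028 for Pdgfrb, −0.11 to 0.14 for Fgf2 and −0.013 to 0.18 for Egfr. The partners whose sign changed gave −0.081 to 0.074 for Met (−0.016 with upper-quartile normalisation), −0.075 to 0.18 for Pdgfb, −0.031 to 0.26 for Fgf1, −0.10 to 0.53 for Erbb3 and −0.29 to 0.48 for Areg. The cause of these changes was not tested.

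The number of genes called was 945 in the main analysis, 1506 with edgeR's exact test, 1929 with a filter of 1 count in any library, 623 with summed transcript counts and 240 with the fold threshold added. It ran from 361 to 1531 with 1 library left out. The pathway lists had 12 genes called in the main analysis, 0 with the fold threshold, and 5 to 16 with 1 library left out.

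The replicate number as a block gave 921 genes called, 0 members and 9 pathway genes. No pairing of the libraries by number was seen. The deviations of same-numbered libraries correlated at −0.0116, −0.00586 and 0.0434, and not every library correlated best with its own number. With deviations taken from the means of 3 libraries per group, this check cannot exclude a pairing. The confidence interval was widest for Fgf7, the member with the fewest counts.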

Other observations

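Receptor tyrosine kinases other than the PDGF, FGF and EGF receptors and Met were looked at as a list chosen after the data were seen. Of 43 such genes 33 were tested, 2 rose and 0 fell. This is close to the share of all genes tested that were called (6.36%, with 4.03% higher). Mst1r, the receptor for macrophage-stimulating protein, had a log2 fold change of 1.16 (adjusted p = 0.0038, edgeR's quasi-likelihood test), and Tie1, an endothelial receptor, of 0.56 (adjusted p = 0.0395), a call lost without si-NC replicate 2 and without any 1 of the si-GPD1L libraries. The median log2 fold change of the list was 0.12. The most abundant of these kinases per length were Axl, Ptk7 and Ddr2, none of which was called.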
